A study of Mus musculus with 10 samples.

Results

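The livers described here came from female mice on a high-fat diet, and the genes described are 9 factors that carry the timing of the circadian clock into its output: Dbp, Tef, Hlf, Nfil3, Ciart, Bhlhe40, Bhlhe41, Rora and Usp2. They were chosen by gene symbol, each symbol matched 1 row, and the deposited table holds 47729 genes in all. The knockout (KO) group had Etnppl deleted in the full body, and the wild-type (WT) group carried intact Etnppl. Etnppl encodes the lyase that breaks down phosphoethanolamine. Mice of both groups had received chow for 8 weeks and then, for 10 weeks, a high-fat diet in which fat supplied 45% of the calories. Poly(A)-selected liver RNA was sequenced, with 5 KO and 5 WT libraries. The sources used here do not give the part of Etnppl that was deleted, the time of day at which livers were taken or the feeding state at that time. The labels number the samples without tying each one to its own mouse, so the p-values below reflect sample-to-sample spread, which may be technical.

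The circadian clock is a transcriptional loop in which the activators BMAL1 (gene Arntl) and CLOCK bind E-boxes and drive the genes of their own repressors, the PER and CRY proteins. The loop passes its timing on through further transcription factors. The PAR bZIP activators DBP, TEF and HLF bind D-boxes, and the repressor NFIL3 binds the same element, with its peak at the opposite time of day from DBP in mouse liver. The receptor RORA and its rivals, the REV-ERB proteins (Nr1d1 and Nr1d2), act on ROR elements. CIART, BHLHE40 and BHLHE41 dampen BMAL1-CLOCK activity, and USP2 is a rhythmic ubiquitin protease. In mouse liver Dbp is among the genes with the deepest daily rhythm, so its level depends strongly on the hour of collection.

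Promoter sequences are shown for Tef and Per3, which rose along Dbp between livers, for Nfil3, whose levels were highest where Dbp was lowest, and for Ciart, whose levels differed in spread between the genotypes. Each is the 250 bases before a RefSeq transcription start on GRCm38.p6, printed 5′ to 3′ along the gene's own strand. Capitals mark an E-box (CACGTG) in Ciart and Tef, a D-box (TTATGTAA) in Per3 and, in Nfil3, the ROR element core TAGGTCA, which lies there on the opposite strand and so reads TGACCTA.
Ciart, chr3:95882229-95882478, minus strand: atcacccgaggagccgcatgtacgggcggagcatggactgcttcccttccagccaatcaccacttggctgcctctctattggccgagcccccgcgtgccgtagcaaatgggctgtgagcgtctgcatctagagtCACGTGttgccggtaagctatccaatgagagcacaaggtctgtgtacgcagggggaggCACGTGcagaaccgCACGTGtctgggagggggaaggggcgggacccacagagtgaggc
Tef, upstream start, chr15:81802423-81802672, plus strand: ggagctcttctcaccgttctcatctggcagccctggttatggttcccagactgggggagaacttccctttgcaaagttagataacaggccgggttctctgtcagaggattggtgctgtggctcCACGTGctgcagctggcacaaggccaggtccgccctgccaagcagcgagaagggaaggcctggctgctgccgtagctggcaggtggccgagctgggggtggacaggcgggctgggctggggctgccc
Tef, downstream start, chr15:81811164-81811413, plus strand: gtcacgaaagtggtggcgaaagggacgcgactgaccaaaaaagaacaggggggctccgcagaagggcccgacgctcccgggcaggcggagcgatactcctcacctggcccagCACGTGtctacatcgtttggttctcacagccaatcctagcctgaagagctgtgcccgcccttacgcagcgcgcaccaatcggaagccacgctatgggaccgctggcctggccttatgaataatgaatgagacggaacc
Nfil3, chr13:52981040-52981289, minus strand: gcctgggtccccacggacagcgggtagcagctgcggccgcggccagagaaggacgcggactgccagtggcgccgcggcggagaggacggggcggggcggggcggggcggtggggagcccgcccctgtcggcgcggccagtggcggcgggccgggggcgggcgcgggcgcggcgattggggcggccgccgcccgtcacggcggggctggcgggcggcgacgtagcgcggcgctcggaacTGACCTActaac
Per3, chr4:151044666-151044915, minus strand: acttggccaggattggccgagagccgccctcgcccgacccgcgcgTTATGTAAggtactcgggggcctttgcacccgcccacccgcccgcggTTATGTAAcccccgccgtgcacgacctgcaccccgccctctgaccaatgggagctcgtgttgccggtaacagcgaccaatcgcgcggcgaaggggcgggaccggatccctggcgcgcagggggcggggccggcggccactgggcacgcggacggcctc
The Ciart window held 3 E-boxes and each Tef window 1. Among all 32851 windows of the same length, CACGTG occurred in 6.02%, TTATGTAA in 0.819% and TAGGTCA in 2.23%, both strands counted. The Bhlhe41 window also held 1 E-box, as did the Cry1 window and the upstream Per1 window, and the Per3 window held 2 D-boxes. The Tef windows held no D-box, and the windows of Nr1d2, Cry2, Arntl and Npas2, core genes described below, held none of the motifs searched. The windows of Dbp, Hlf, Rora and Usp2 held none of CACGTG, TTATGTAA, TTACGTAA (0.113% of all windows), TAGGTCA or TGGGTCA (3.24%), which says only that these letters are not in those 250 bases. No 2 of these motifs overlapped in the windows shown.

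Levels are given in FPKM, the fragments of a gene scaled to its length and to the library total, so genes can be ranked within this table. Over the 10 libraries Tef averaged 31.5 FPKM, Bhlhe40 26.6, Hlf 21.4, Nfil3 15.5, Dbp 14.7, Rora 9.72, Usp2 4.24, Ciart 3.32 and Bhlhe41 0.231 FPKM. Rora was above Usp2, and Ciart above Bhlhe41, in all 10 libraries, and these were the clear steps in the order. Bhlhe40 exceeded Hlf in 9 of 10 libraries, and Usp2 exceeded Ciart in 9 of 10. The other neighbours changed places between libraries. Tef exceeded Bhlhe40 in 6, Hlf exceeded Nfil3 in 7, Nfil3 exceeded Dbp in 6 and Dbp exceeded Rora in 4 of 10, so their order did not hold beyond the spread.

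Etnppl lay between 7.36 and 10.19 FPKM in KO livers and between 27.57 and 56.55 FPKM in WT livers, so each library matched its label (log2 fold change -1.99, limma adjusted p = 0.000387). The hepatocyte markers summed to between 65414 and 76603 FPKM in KO and between 57295 and 69540 FPKM in WT. All 8 of these markers were higher in KO (median log2 fold change 0.20), as were 4325 of the 12395 genes tested. At an unadjusted p under 0.05 in limma there were 3 of the 8, against 2.69% of genes tested that were higher in KO at that level. The groups were separate in 2 of the 8, against 2.79% of genes tested. None of these markers passed the adjusted threshold, and their part in any result was not tested. Adipose markers summed to at most 0.59 FPKM in any library. Exocrine pancreas markers summed to between 2.32 and 157 FPKM in KO and between 2.64 and 4.08 FPKM in WT, and their part was likewise not tested. In tissue RNA, fewer cells of a type and less RNA per cell cannot be told apart. The depth estimated from the steps between low values was 21000000 to 28200000 fragments per library.

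Among the PAR bZIP activators, Dbp differed most between livers. Its levels were 1.13, 8.25, 4.24, 9.59 and 17.33 FPKM in KO replicates 1 to 5, against 2.71, 5.50, 14.50, 37.91 and 46.24 FPKM in WT replicates 1 to 5. The highest library stood 40.9-fold above the lowest, replicate 1 was the lowest and replicate 5 the highest of each genotype, and the groups overlapped between 2.71 and 17.33 FPKM. Dbp averaged 8.11 ± 6.14 FPKM in KO and 21.4 ± 19.6 FPKM in WT (SD, n = 5 each). The log2 fold change of -1.08 (standard error 0.90, 95% CI -3.13 to 0.96) did not pass (limma adjusted p = 0.690). With 1 library left out it ran from -1.61 without WT replicate 1 to -0.58 without KO replicate 1, and was -0.72 without WT replicate 4 and -0.65 without WT replicate 5. The Dbp gene (chromosome 7, 45705088 to 45710203, plus strand, GRCm38) shares 539 exon bases with Sphk2, a sphingosine kinase gene on the opposite strand. The sources used here do not say whether counting used strand, and without it reads from the shared bases cannot be told apart. Sphk2 itself lay between 11.07 and 21.31 FPKM.

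Tef (chromosome 15, 81802421 to 81826863, plus strand), the PAR bZIP gene of highest level, had 14.71, 29.13, 24.30, 31.44 and 37.67 FPKM in KO replicates 1 to 5 and 19.36, 30.62, 30.14, 46.10 and 51.33 FPKM in WT replicates 1 to 5. The 2 highest livers were WT replicates 4 and 5, replicate 1 was lowest in each genotype, and the groups overlapped. Tef averaged 27.45 ± 8.59 FPKM in KO and 35.5 ± 13.0 FPKM in WT, with a log2 fold change of -0.35 (95% CI -1.03 to 0.33, limma adjusted p = 0.704). That value was -0.54 without WT replicate 1, -0.15 without KO replicate 1 and -0.20 without WT replicate 5. Hlf (chromosome 11, 90336536 to 90390895, minus strand), the remaining activator, was steadier. It had 21.53, 21.14, 18.45, 16.98 and 21.39 FPKM in KO and 21.29, 16.74, 27.34, 23.86 and 25.17 FPKM in WT. Its log2 fold change was -0.18 (95% CI -0.44 to 0.08, limma adjusted p = 0.578), and the KO values lay within the WT range. The change was -0.29 without WT replicate 2 and -0.12 without WT replicate 3.

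Nfil3 (chromosome 13, 52967209 to 52981073, minus strand), the repressor at D-boxes, was highest in the livers with the least Dbp. It had 28.87, 22.65, 16.76, 10.29 and 9.15 FPKM in KO replicates 1 to 5, against 21.65, 14.79, 14.24, 9.64 and 6.48 FPKM in WT replicates 1 to 5. Replicate 1 was the highest and replicate 5 the lowest of each genotype, the reverse of Dbp. The Dbp level was 0.0391 times that of Nfil3 in KO replicate 1 and 1.89 times in KO replicate 5, against 0.125 times in WT replicate 1 and 7.14 times in WT replicate 5. Nfil3 averaged 17.5 ± 8.34 FPKM in KO and 13.4 ± 5.76 FPKM in WT (log2 fold change 0.36, 95% CI -0.50 to 1.22, limma adjusted p = 0.756). Single libraries moved this value, to 0.55 without WT replicate 1, 0.15 without KO replicate 1 and 0.14 without WT replicate 5. The groups overlapped over most of their range.

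**Figure D1:**
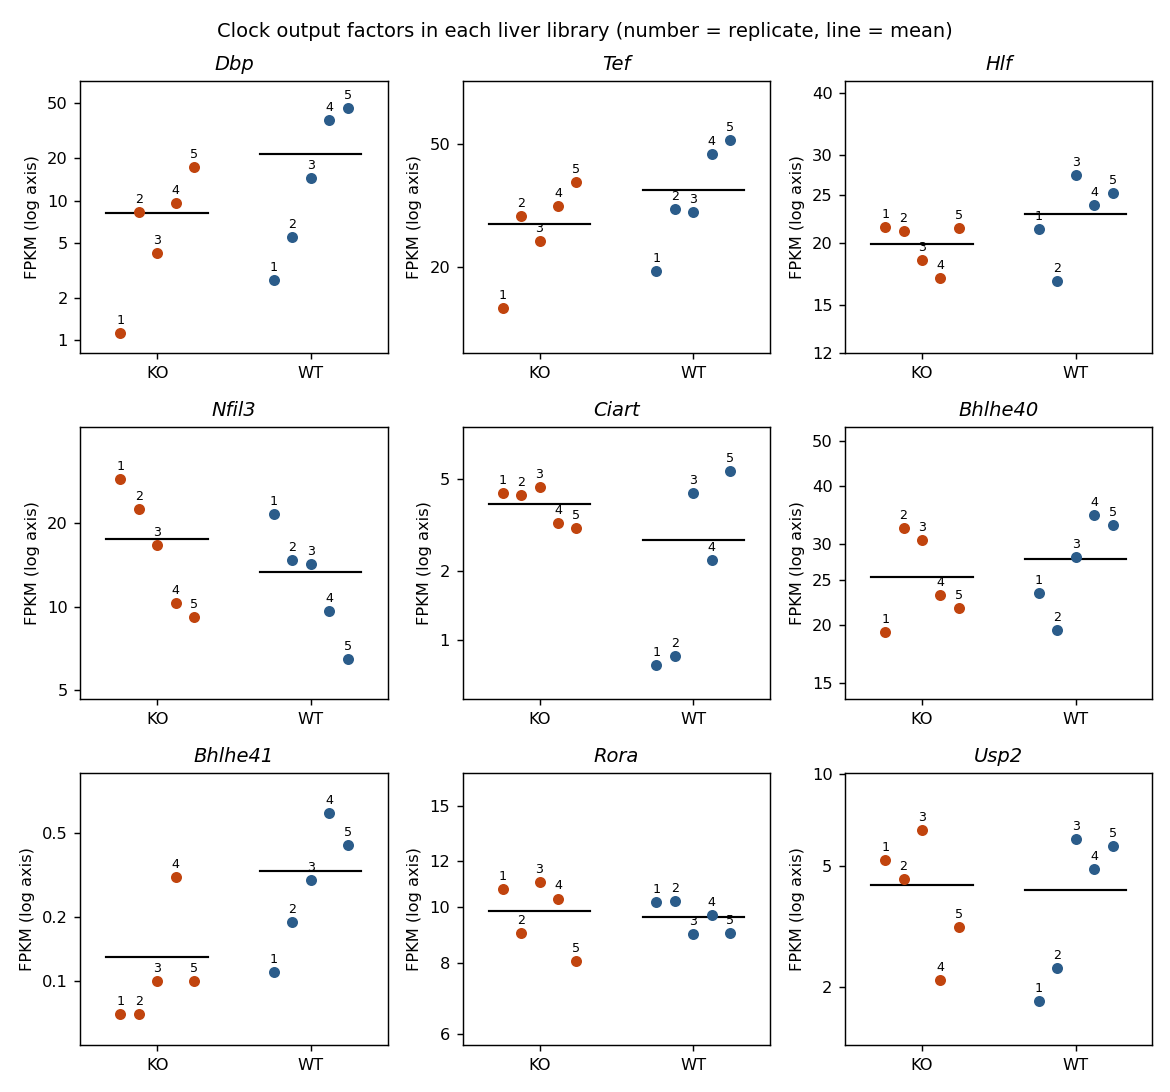
FPKM of the 9 clock output factors, 1 panel per gene on a log axis, with KO libraries on the left and WT libraries on the right, each point 1 library with its replicate number and each line a group mean. Dbp spans 1.13 to 46.24 FPKM, Nfil3 is highest in replicate 1 of both genotypes, Ciart spans 3.07 to 4.63 FPKM in KO and 0.78 to 5.43 FPKM in WT, and the groups overlap in every panel.

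Ciart (chromosome 3, 95878503 to 95882251, minus strand), a repressor of BMAL1-CLOCK also known as CHRONO, had 4.33, 4.26, 4.63, 3.24 and 3.07 FPKM in KO livers, against 0.78, 0.86, 4.34, 2.22 and 5.43 FPKM in WT livers. The KO values fell in a narrow band, while WT replicates 1 and 2 lay well below every other library. Ciart averaged 3.91 ± 0.702 FPKM in KO and 2.73 ± 2.09 FPKM in WT, with a log2 fold change of 0.71 (95% CI -0.23 to 1.64, limma adjusted p = 0.543). It was 0.44 without WT replicate 1, 0.46 without WT replicate 2 and 0.99 without WT replicate 5. On the log2 scale its SD was 0.24 in KO and 1.02 in WT, a difference in spread that was not tested.

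Usp2 (chromosome 9, 44067021 to 44095627, plus strand) had 5.23, 4.54, 6.54, 2.11 and 3.14 FPKM in KO livers and 1.80, 2.30, 6.12, 4.87 and 5.79 FPKM in WT livers. Here too WT replicates 1 and 2 were low, with KO replicates 4 and 5 beside them. The means of 4.31 ± 1.74 FPKM in KO and 4.18 ± 2.0 FPKM in WT differed by less than the spread (log2 fold change 0.08, 95% CI -0.72 to 0.89, limma adjusted p = 0.951). Bhlhe40 (DEC1, chromosome 6, 108660629 to 108666925, plus strand), which competes for E-boxes, lay between 19.37 and 32.40 FPKM in KO (median 23.28) and between 19.51 and 34.68 FPKM in WT (median 28.16). Its log2 fold change was -0.12 (95% CI -0.51 to 0.27, limma adjusted p = 0.835), and lay between -0.23 without WT replicate 2 and -0.03 without KO replicate 1. Rora (chromosome 9, 68653786 to 69388246, plus strand) was the steadiest, between 8.05 and 11.05 FPKM in KO and between 8.96 and 10.22 FPKM in WT. Its log2 fold change was 0.02 (95% CI -0.17 to 0.22, limma adjusted p = 0.941).

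Bhlhe41 (DEC2, chromosome 6, 145858243 to 145865558, minus strand), the close relative of Bhlhe40, was barely expressed. It had 0.07, 0.07, 0.10, 0.31 and 0.10 FPKM in KO livers and 0.11, 0.19, 0.30, 0.62 and 0.44 FPKM in WT livers. All KO livers but replicate 4 lay below every WT liver, and the groups overlapped through that library. At the estimated depths, 1 fragment on the longest annotated transcript, 6133 bases, was worth 0.00578 to 0.00776 FPKM. On the shortest, 690 bases, 1 fragment would be worth more, so the number of fragments behind these levels is not known. The gene missed the filter on low values and was tested alone. With the filter removed, its limma adjusted p over 21303 genes was 0.554. On log2(FPKM + 0.5) the KO minus WT difference was -0.38, with p = 0.0635 in a two-sided exact permutation test whose smallest possible p is 0.00794. Leaving out KO replicate 4, the library through which the groups overlapped, gave an exact p = 0.0397, and leaving out WT replicate 1 gave an exact p = 0.0317. Leaving out any other single library gave an exact permutation p from 0.0635 (without WT replicate 2) to 0.143 (without KO replicate 1 or 2). In its exons, 1280 bases are shared with Gm43909, a gene model on the opposite strand.

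None of the 8 output factors that passed the filter on low values differed between the genotypes past an adjusted p of 0.05 in limma, and none did so at an unadjusted p under 0.05. Among all 12395 genes tested, 0.0645% passed the adjusted and 11.8% the unadjusted threshold, 2.69% higher and 9.07% lower in KO. That split, 334 genes higher and 1124 lower, was 641 and 644 with median-of-ratios scaling. In none of the 8 were the groups separate, against 2.79% of genes tested. Of these 8 genes 4 were higher and 4 lower in KO, with a median log2 fold change of -0.05, the same as the -0.05 over all genes tested. The intervals of Dbp and Usp2 were wide enough to hold differences of more than 1.5-fold in either direction. Those of Hlf and Rora were narrow, ending at -0.44 and 0.08 for Hlf and at -0.17 and 0.22 for Rora.

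**Figure D2:**
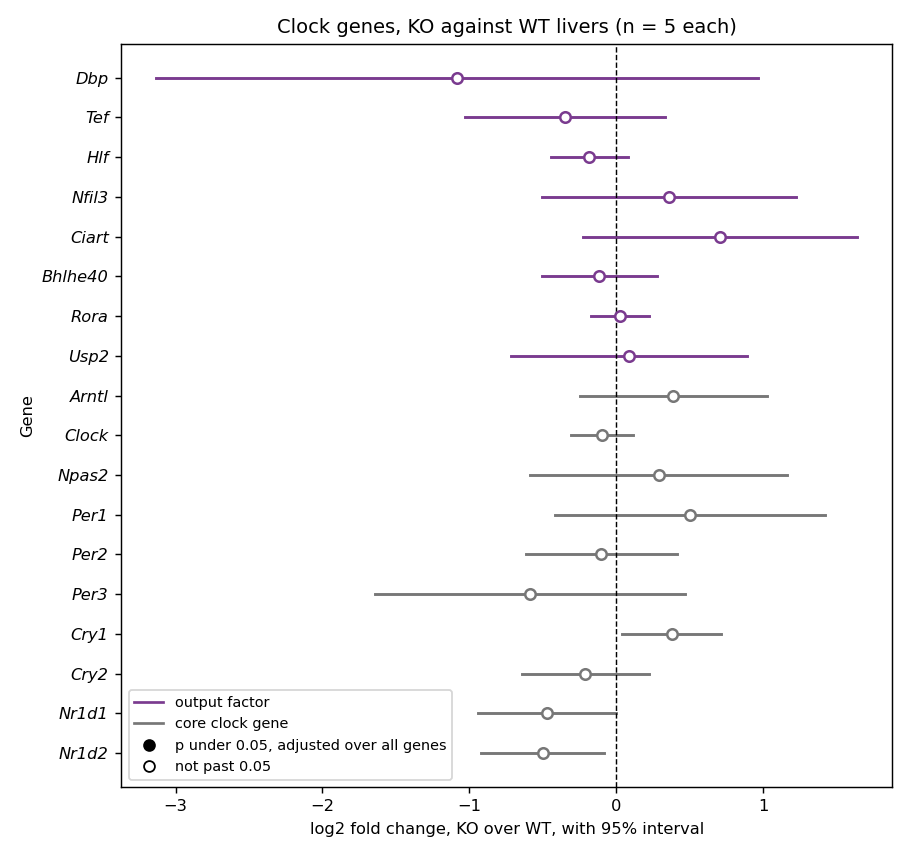
Log2 fold change of KO over WT with its 95% interval (limma, 5 libraries per group) for 8 output factors in purple and 10 core clock genes in grey, with open points for genes not past an adjusted p of 0.05. All points are open, and the interval of Dbp, from -3.13 to 0.96, is the widest.

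The core loop was set beside these factors. None of its 10 genes passed the adjusted threshold. At an unadjusted p under 0.05 Cry1 was higher and Nr1d2 lower in KO. That is 1 of 10 in each direction, against 2.69% of genes tested higher and 9.07% lower. Cry1, a repressor of BMAL1-CLOCK, averaged 4.51 ± 1.32 FPKM in KO and 3.27 ± 0.330 FPKM in WT (log2 fold change 0.38, limma adjusted p = 0.367). Nr1d2 (REV-ERB beta) averaged 11.4 ± 2.55 FPKM in KO and 16.3 ± 4.10 FPKM in WT (log2 fold change -0.50, limma adjusted p = 0.319). Nr1d1 (REV-ERB alpha) had log2 fold change -0.47 (limma adjusted p = 0.425), and shares 263 exon bases with Thra on the opposite strand. For the activators, Arntl had 0.39, Npas2 0.29 and Clock -0.09, and among the PER and CRY repressors Per1 had 0.50, Per2 -0.10, Per3 -0.59 and Cry2 -0.21, all as log2 fold changes.

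The larger pattern lay between livers of one genotype. The SD of Dbp within a genotype was 1.5 on the log2 scale, larger than that of 99.8% of genes tested, whose median was 0.17. Ciart (0.74), Nfil3 (0.66), Usp2 (0.64) and Tef (0.53) also stood above 97.3% or more of genes tested. Bhlhe40 (0.33) stood above 88.5%, Hlf (0.22) above 68.0% and Rora (0.14) above 37.3%. In the core loop, Per3 (0.84), Npas2 (0.71), Per1 (0.71) and Arntl (0.52) were also variable. Per1 also had a wider spread in WT, with a log2 SD of 0.16 in KO and 0.99 in WT. Its lowest WT libraries were replicates 3 and 4 (5.38 and 2.06 FPKM), whereas those of Ciart were replicates 1 and 2.

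**Figure D3:**
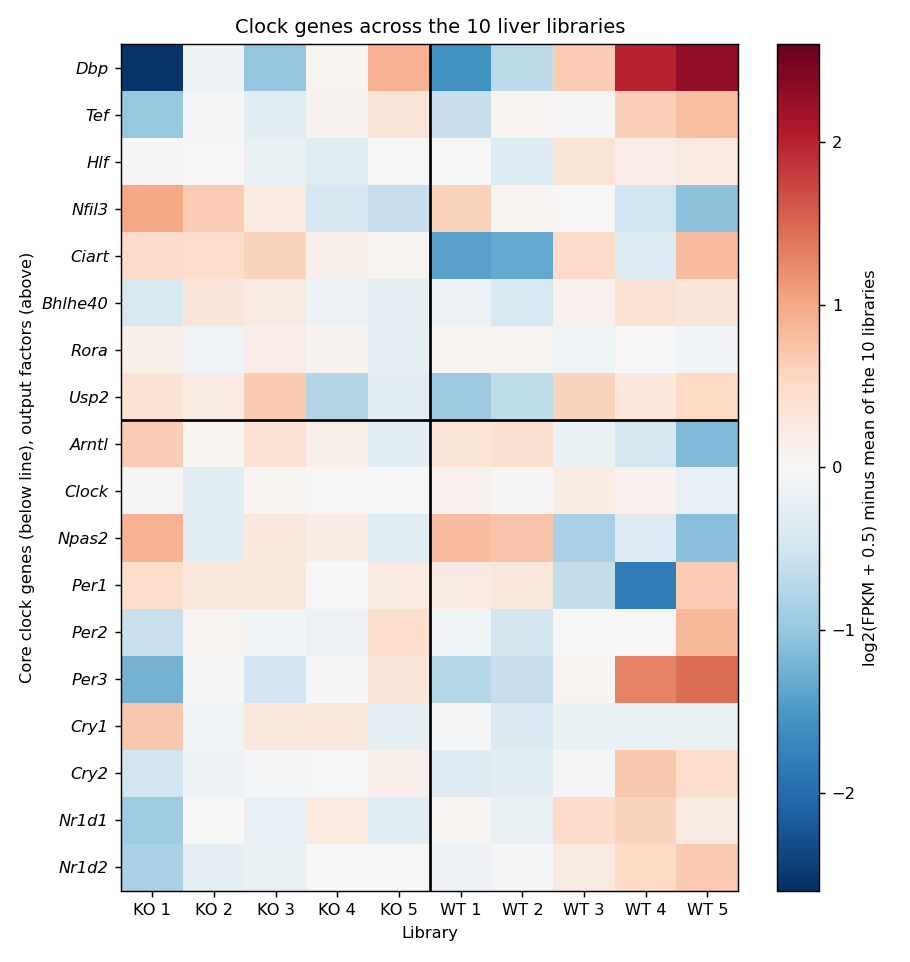
Level of 8 output factors (above the line) and 10 core clock genes (below) in each library as log2(FPKM + 0.5) minus the mean of the 10 libraries, with KO 1 to 5 on the left and WT 1 to 5 on the right. Dbp, Tef and Per3 are low in KO 1 and WT 1 and high in WT 4 and WT 5, while Nfil3 and Arntl show the opposite colours in those libraries.

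To ask which genes varied with Dbp between livers of one genotype, every gene was fitted against the Dbp level of its library, with genotype in the model. The slope is the log2 change of a gene per log2 unit of Dbp. All values of a library share its total and its scaling, and Dbp was not itself tested. Tef rose along Dbp with a slope of 0.34 (standard error 0.03, 95% CI 0.27 to 0.41, limma adjusted p = 0.00123), at 0.38 within KO and 0.31 within WT. It was 1 of the 7 other output factors tested, and 0.129% of the 12394 genes tested passed, 0.0807% with a positive and 0.0484% with a negative slope. Nfil3 had a slope of -0.39 (95% CI -0.54 to -0.24, limma adjusted p = 0.0699), at -0.43 within KO and -0.36 within WT, and did not pass. Bhlhe40 had a slope of 0.13 (limma adjusted p = 0.455), Hlf 0.05 (limma adjusted p = 0.775) and Rora -0.06 (limma adjusted p = 0.539). At an unadjusted p under 0.05 there were 3 of the 7, Tef, Bhlhe40 and Nfil3, against 9.42% of genes tested.

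The Tef call was lost when both ends of the Dbp range were left out. That fit had fewer libraries as well as a shorter range, which cannot be told apart. Without the 2 libraries farthest from the median Dbp level, KO replicate 1 at 1.13 FPKM and WT replicate 5 at 46.24 FPKM, its slope was 0.30 (limma adjusted p = 0.127) and no gene passed. With any 1 library left out Tef passed, with slopes of 0.32 to 0.37. Nfil3 then passed without KO replicate 2 (slope -0.41, limma adjusted p = 0.0108).

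**Figure D4:**
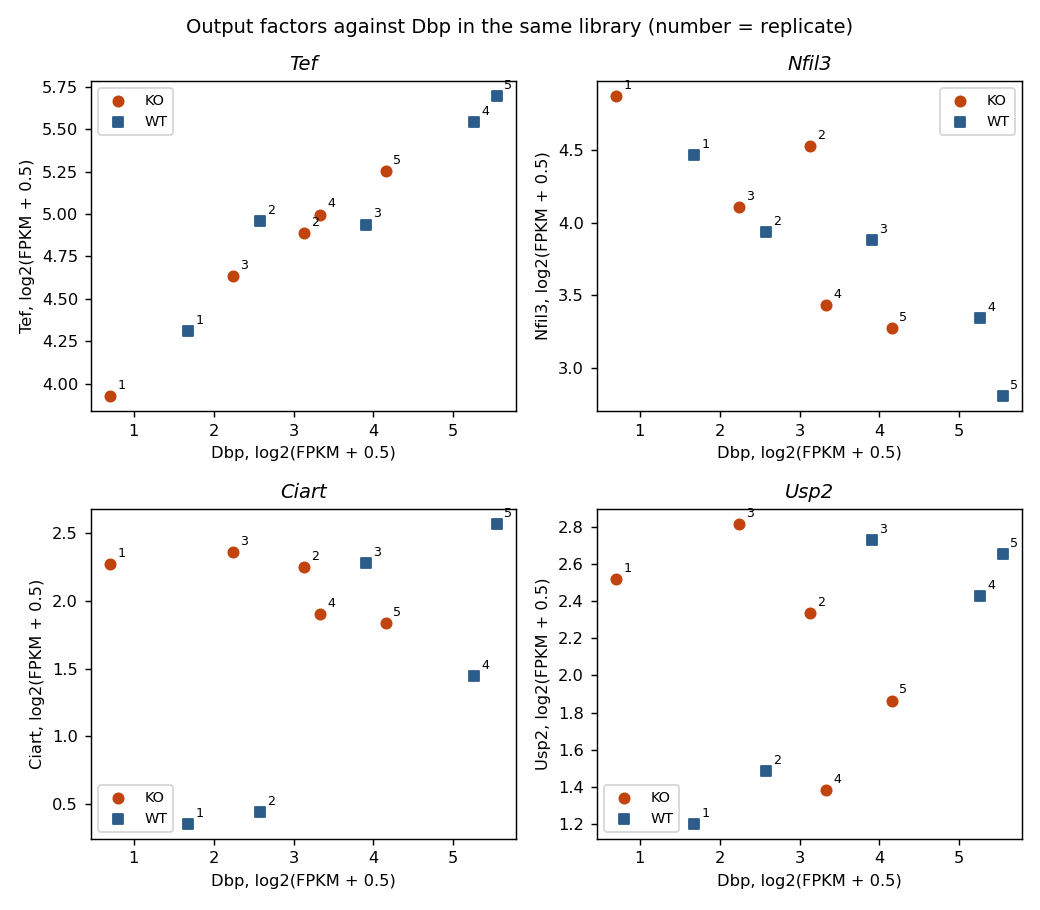
Level of Tef, Nfil3, Ciart and Usp2 against the level of Dbp in the same library, both as log2(FPKM + 0.5), with KO libraries as circles and WT libraries as squares, numbered by replicate. Tef is higher where Dbp is higher in both genotypes and Nfil3 is lower there, while WT 1 and WT 2 lie low for Ciart and Usp2.

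For Ciart and Usp2 the slopes within KO and within WT had opposite signs, as they did for Hlf (-0.02 within KO and 0.10 within WT). Ciart had a slope of 0.26 over both genotypes (limma adjusted p = 0.619), made up of -0.13 within KO and 0.50 within WT. Usp2 had 0.13 (limma adjusted p = 0.859), made up of -0.27 within KO and 0.37 within WT. A test of the difference in slope was added after seeing the data. The difference, KO minus WT, was -0.63 for Ciart (95% CI -1.08 to -0.18) and -0.64 for Usp2 (95% CI -1.05 to -0.24), intervals that are not adjusted for the number of genes. Neither passed the test of that difference over all genes (limma adjusted p = 0.904 for both). No gene did, while 5.49% of genes tested had an unadjusted p under 0.05, among them Ciart, Usp2 and, in the core loop, Cry1 (difference -0.25). With any 1 library left out, the difference ran from -0.79 to -0.55 for Ciart and from -0.93 to -0.57 for Usp2. KO replicate 1, lowest in Dbp, had 4.33 FPKM of Ciart and 5.23 FPKM of Usp2, whereas WT replicate 1, lowest in Dbp among WT, had 0.78 and 1.80 FPKM.

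In the core loop 4 of 10 genes passed along Dbp, 3 rising and 1 falling. Over all genes tested 0.129% passed, 0.0807% rising and 0.0484% falling. Per3, a clock repressor of the PER family, rose with a slope of 0.55 (95% CI 0.44 to 0.66, limma adjusted p = 0.00123). Its levels were 0.18, 1.04, 0.63, 1.07 and 1.49 FPKM in KO livers and 0.45, 0.55, 1.18, 3.38 and 3.86 FPKM in WT livers. Nr1d2 rose with a slope of 0.22 (limma adjusted p = 0.0214) and Cry2 with 0.22 (limma adjusted p = 0.0433). Arntl, the activator of the loop, fell with a slope of -0.32 (limma adjusted p = 0.0318). Arntl had 9.42, 6.08, 7.85, 6.57 and 4.63 FPKM in KO livers and 7.62, 7.89, 5.13, 4.19 and 2.37 FPKM in WT livers. Npas2, which can stand in for CLOCK, had a slope of -0.41 (limma adjusted p = 0.0699). Like Nfil3, both Arntl and Npas2 are known targets of the REV-ERB and ROR receptors. Single libraries decided several of these calls. Per3 passed with any 1 library left out, but Arntl did not without KO replicate 1, 2, 3 or 5 or WT replicate 1. Nr1d2 did not without KO replicate 1 or 5 or WT replicate 1 or 5, and Cry2 passed only without WT replicate 3. With a pseudocount of 0.1 Arntl and Cry2 did not pass, and without the 2 libraries farthest in Dbp none of the 4 did.

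**Figure D5:**
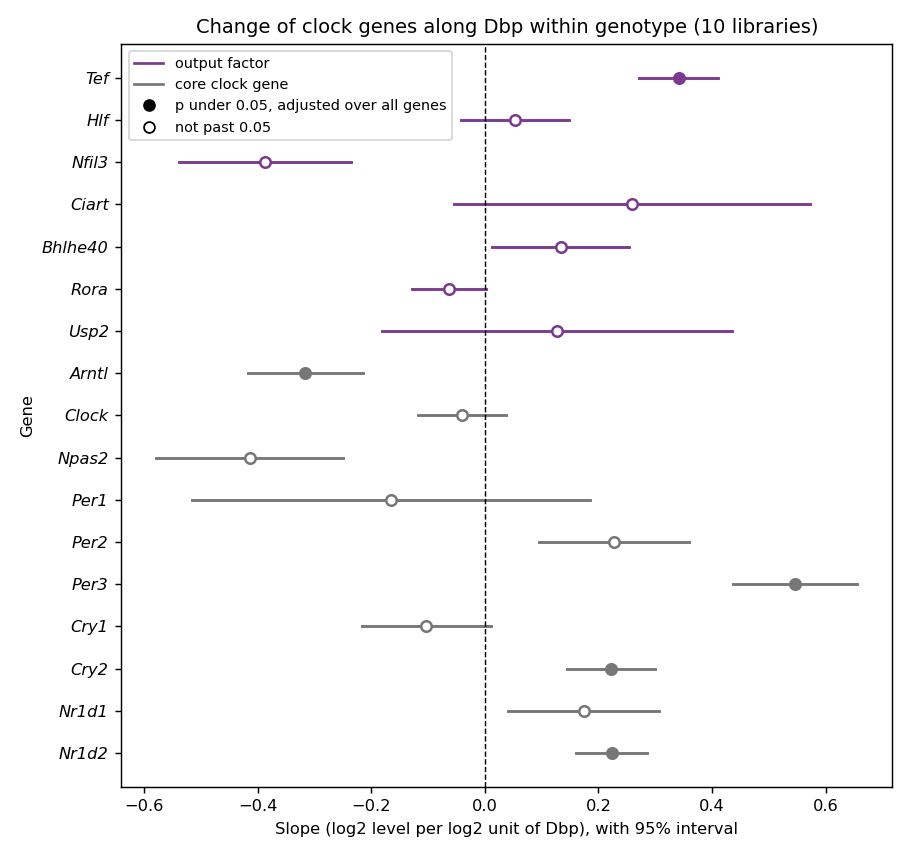
Slope of each clock gene along Dbp within genotype, in log2 units per log2 unit of Dbp, with its 95% interval (limma, 10 libraries), output factors in purple and core clock genes in grey, filled where the adjusted p is under 0.05. Tef (0.34), Per3 (0.55), Cry2 (0.22) and Nr1d2 (0.22) are filled on the right and Arntl (-0.32) on the left, with Nfil3 (-0.39) and Npas2 (-0.41) open.

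Beyond the clock lists, the genes most like Dbp, by lowest p over the 10 libraries, were Slc5a6, a vitamin transporter (slope 0.27), the protease gene Pcsk4 (0.24), Mid1ip1, a regulator of acetyl-CoA carboxylase (0.26), Ttc7 (0.24) and Ciapin1 (0.24). Those most opposed were Arl4a (-0.24), Slc45a3 (-0.33), the syndecan gene Sdc4 (-0.22), Clpx, a chaperone of mitochondrial protein breakdown (-0.24), and Ip6k2 (-0.31). All 10 were among the 16 genes past the adjusted threshold, of which 10 had positive and 6 negative slopes. These calls depended on single libraries and settings. Over 17 alternatives, Pcsk4 and Slc45a3 passed in 11, Slc5a6 and Arl4a in 10, Sdc4 in 9, Mid1ip1, Ttc7 and Clpx in 7, and Ciapin1 and Ip6k2 in 5, and none of the 10 passed without the 2 libraries farthest in Dbp.

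Of the genes of the fed and fasted state, all 8 had negative slopes, with a median of -0.16 against 0.01 over all genes tested, and 6 had an unadjusted p under 0.05, against the same 9.42% of genes tested. None passed the adjusted threshold. The gluconeogenic Pck1 had a slope of -0.18 (limma adjusted p = 0.303), the hormone gene Fgf21, a known NFIL3 target, -0.22 (limma adjusted p = 0.252) and the lipase inhibitor Angptl4 -0.12 (limma adjusted p = 0.402). Between genotypes 6 of the 8 were higher and 2 lower in KO, where 4325 of 12395 genes tested were higher, and none passed. Ppargc1a, Angptl4 and Pck1 were higher in KO at an unadjusted p under 0.05 in limma. That is 3 of 8, against 2.69% of genes tested. The part of feeding in the Dbp slopes, or in the differences between genotypes, was not tested. Markers of Kupffer cells (0 of 8), sinusoidal endothelium (0 of 8), stellate cells (0 of 8), lymphocytes (0 of 5), cholangiocytes (0 of 4) and exocrine pancreas (0 of 6) had no member at an unadjusted p under 0.05 along Dbp.

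Genes downstream of the output factors were examined next. Of 7 liver genes known as PAR bZIP targets, 5 had positive and 2 negative slopes, where 7500 of 12394 genes tested had positive slopes. None of the 7 had an unadjusted p under 0.05 along Dbp, against 9.42% of genes tested. Between genotypes none passed the adjusted threshold, and Cyp2a4, a steroid hydroxylase, averaged 60.1 ± 20.6 FPKM in KO and 132 ± 32.8 FPKM in WT (log2 fold change -1.16, limma adjusted p = 0.120). Its groups did not overlap, with 41.35 to 85.55 FPKM in KO and 107.29 to 186.82 FPKM in WT. That is 1 of 7, against 2.79% of genes tested. Cyp2a4 was also the 1 of 7 lower in KO at an unadjusted p under 0.05 in limma, against 9.07% of genes tested. Cyp2a4 has the near-identical copy Cyp2a5, so the split of reads between them is uncertain. Cyp2a5 averaged 307 ± 38.6 FPKM in KO and 285 ± 70.0 FPKM in WT. Cyp2b10, another cytochrome P450 gene, averaged 1.4 ± 0.966 FPKM in KO and 0.71 ± 0.621 FPKM in WT, and Por, the electron donor of these enzymes, 269 ± 57.4 FPKM in KO and 239 ± 32.3 FPKM in WT.

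Of 8 other rhythmic liver genes, 4 were higher and 4 lower in KO and none passed. Tsc22d3, a gene induced by glucocorticoids, averaged 66.6 ± 21.3 FPKM in KO and 41.0 ± 13.2 FPKM in WT (log2 fold change 0.72, limma adjusted p = 0.403). The cell cycle kinase Wee1 averaged 0.876 ± 0.128 FPKM in KO and 1.33 ± 0.71 FPKM in WT, and had a slope of 0.22 along Dbp (limma adjusted p = 0.175). Noct (nocturnin) averaged 19.0 ± 5.14 FPKM in KO and 28.4 ± 12.9 FPKM in WT, and the elongase Elovl3 3.98 ± 1.28 FPKM in KO and 2.45 ± 1.89 FPKM in WT. Along Dbp 3 of these 8 genes had positive and 5 negative slopes, and none passed. In each direction 2 had an unadjusted p under 0.05, against 835 positive and 333 negative of 12394 genes tested. Tsc22d3 had a slope of -0.25 (limma adjusted p = 0.363), Noct -0.06 and Elovl3 -0.10. Of 5 kinases and ubiquitin ligases that act on clock proteins, 4 were higher and 1 lower in KO and none passed. Btrc, which marks PER proteins for breakdown, averaged 2.47 ± 0.202 FPKM in KO and 2.02 ± 0.148 FPKM in WT (limma adjusted p = 0.324). Gsk3b, Csnk1e and Fbxw11, the others of lowest p, had log2 fold changes of -0.13, 0.08 and 0.02.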

How the data were processed

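The deposited table gives FPKM computed by the authors, 1 column per library, rounded to 2 decimals. It has 2 further columns without a name, which were not used. The tools that the submitters' processing notes list, without roles, are DESeq, DESeq2, RSEM, STAR and R 4.0.2, and the build is mm10. The sources used here give no annotation, filter or strand setting. A count test was not run, because the files hold FPKM. Depth was estimated by finding, for genes with 1 annotated transcript, the library total at which their FPKM corresponded to whole fragments. Between 93.2% and 97.0% of values came within 0.1 of a whole number.

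KO was compared with WT on log2(FPKM + 0.5) for 12395 genes averaging 0.5 FPKM or more over the 10 libraries, with limma 3.58.1 in R 4.3.3 (two-sided test with trend and robust prior, p adjusted by Benjamini-Hochberg over all genes tested, threshold 0.05). Changes of low genes are understated by the pseudocount of 0.5. The Dbp fit added the Dbp level, centred within genotype, as a covariate. It was tested over 12394 genes. The test of the difference in slope between genotypes was added after seeing the data. A rule chose the named genes: Etnppl, the 9 factors, the core loop, up to 4 genes of lowest p in each other pathway list, and the 5 genes of lowest p in each direction along Dbp. Members of the core loop and of the kinase and ligase list that are not reported here were left out of the list counts. Sphk2, Thra and Gm43909 were added because they overlap named genes. The members, lists and motifs were chosen with earlier results of these data known. Both fits were tested on simulated data. Alternatives were other pseudocounts, filters and scalings, no trend, the replicate number as a block, and each library left out. Coordinates are from GENCODE M21 (GRCm38) and promoters from RefSeq (GRCm38.p6), in which 8 of the 9 factors matched. Plots used matplotlib 3.10.9 in Python 3.11.15.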

Additional observations from a re-analysis of the deposited data

Results flagged for a closer look

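In 40 groups of 5 libraries, 19 clock genes and Etnppl in each genotype, the highest or lowest library stood far from its neighbours in 3, where chance gives about 1 group in 20. Bhlhe41 was 0.31 FPKM in KO replicate 4, against 0.07 to 0.10 FPKM in the other KO libraries. Clock was 4.74 FPKM in KO replicate 2, below the other KO libraries. Per2 was 4.49 FPKM in WT replicate 5, above the other WT libraries, in the library that was also highest in Dbp and Per3.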

How the results depend on the processing

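None of the 8 output factors above the filter passed between KO and WT under any alternative run. Bhlhe41, tested alone, had exact permutation p-values from 0.0317 to 0.143, unadjusted. Without a filter its limma adjusted p was 0.554. At an unadjusted p under 0.05 there were 0 to 1 of the 8 with 1 library left out and 3 with the replicate block. Among all genes at that level there were 1514 of 12395 tested with the block. With 1 library left out there were from 1264 of 12378 (without WT replicate 4) to 1535 of 12385 (without KO replicate 5). Over all genes the count past the adjusted threshold was 8. It was 5 without a filter on low values, 5 without trend and robust prior and 5 with the replicate number as a block. It was 4 to 18 with 1 library left out, the 18 without WT replicate 2. At an unadjusted p under 0.05, quantile normalization gave 645 genes higher and 680 lower in KO. With 1 library left out, log2 fold changes lay between -0.0175 and 0.0909 for Rora, -0.139 and 0.284 for Usp2, -0.235 and 0.0981 for Per2 and -0.0255 and 0.0491 for Fbxw11, across 0 in each.

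The replicate numbers were not taken as pairs, since 2 of 5 same-numbered pairs correlated above 0.1 and 2 of 5 WT libraries matched best with the KO library of their number. These correlations ran over all genes tested, so they cannot tell whether clock genes share an order across the replicate numbers. Nfil3 fell from replicate 1 to replicate 5 in both genotypes, and Dbp was lowest in replicate 1 and highest in replicate 5 of each. The labels do not say what the numbers stand for. With the replicate block Tef kept its log2 fold change of -0.35 (limma adjusted p = 0.168), the smallest adjusted p among the output factors.

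Along Dbp the count over all genes was 16, with 9 at a pseudocount of 0.1, 33 without the genotype term, 0 without the 2 libraries farthest in Dbp, 0 with the replicate block (added after seeing the data) and 2 to 27 with 1 library left out. Of output factors 1 passed, with 2 without the genotype term, 0 without the 2 farthest libraries, 0 with the block and 1 to 2 with 1 library left out. With the block, the Tef slope was 0.16 (limma adjusted p = 0.527), and the slopes of Nfil3 and Slc45a3 turned to 0.17 and 0.0255, neither past the threshold. Without the 2 farthest libraries the slope of Clock was 0.00575. With 1 library left out the slope of Usp2 ran from -0.00619 to 0.241. The cause was not tested.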

Other observations

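All 7 immediate early genes tested were lower in KO, where 8070 of 12395 genes tested were lower, and none passed the adjusted threshold. The transcription factor gene Atf3 averaged 0.996 ± 0.258 FPKM in KO and 1.75 ± 0.561 FPKM in WT (limma adjusted p = 0.233), and Junb 17.8 ± 4.32 FPKM in KO and 25.9 ± 5.89 FPKM in WT (limma adjusted p = 0.274). Egr1 varied widely, with 29.56, 11.04, 10.32, 9.15 and 8.01 FPKM in KO livers and 31.70, 79.65, 4.86, 8.39 and 20.73 FPKM in WT livers. Its highest library stood 16.4-fold above its lowest, against 40.9-fold for Dbp and at most 8.86-fold, in Bhlhe41, for the other output factors. The slope of Egr1 along Dbp was -0.51 (limma adjusted p = 0.533). Jun had a log2 fold change of -0.39 (limma adjusted p = 0.457). Among fed and fasted state genes, the coactivator gene Ppargc1a averaged 5.40 ± 1.43 FPKM in KO and 3.76 ± 0.569 FPKM in WT (limma adjusted p = 0.285).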
